A study of Homo sapiens with 4 samples.

Results

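Kinetochore and centromere genes were followed in 769-P, a renal clear cell carcinoma line, by taking every row of the deposited tables whose gene name belonged to a list of 40 genes of the centromere, the inner and outer kinetochore, CENPA loading and centromeric cohesion. All 40 were found once each among 58735 genes. Both groups consisted of 769-P cells stably transfected with an inducible shRNA construct against USP35, a ubiquitin-specific protease, and grown with puromycin. The 2 control libraries came from untreated cells, and the 2 doxycycline libraries from cells given doxycycline at 1 µg/ml for 4 days. A doxycycline-treated line without the hairpin was not analysed here, so effects of the drug and of the hairpin cannot be told apart, and the labels do not say whether the line is 1 clone or whether replicates were separate cultures. Every p below thus reflects only how far single libraries of a group lay apart, in the gene itself and in other genes, whose spread limma borrows. That spread may be technical. Depth was 16319640 and 17244546 reads in control replicates 1 and 2 and 17481827 and 18764546 reads in doxycycline replicates 1 and 2. Mitochondrially encoded genes took 7.44% to 8.50% of reads in the first 3 of these libraries and 14.6% in doxycycline replicate 2. USP35 stood at 3.31 and 4.19 FPKM untreated, against 2.11 and 2.54 FPKM after doxycycline (adjusted p = 0.256 by limma).

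The kinetochore is the protein assembly on which microtubules pull chromosomes apart. It is built on centromeric chromatin marked by CENPA, a histone H3 variant that the chaperone HJURP and the MIS18 complex deposit after mitosis. On this chromatin sits the constitutive centromere-associated network (CCAN), to which the outer kinetochore is added for mitosis: the KMN network of KNL1, the MIS12 complex and the NDC80 complex, which binds microtubules, and then the SKA complex and the corona proteins. Transcripts of many of these genes peak in G2 and mitosis of dividing cells, under control of the DREAM and MYBL2-FOXM1 machinery, whereas others are made throughout the cell cycle.

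Renal lineage was checked first, on 10 markers, of which 9 averaged 1 FPKM or more over the 4 libraries and were kept. Both doxycycline libraries lay below both controls for 4 and above both for 1, beside 28.9% and 24.3% of all genes kept. The other 4 overlapped. PAX8, a nephric lineage factor, stood at 38.5 to 53.9 FPKM over the 4 libraries. LHX1, another, stood at 25.6 and 27.3 FPKM untreated, against 6.48 and 5.26 FPKM after doxycycline (limma adjusted p = 0.0573), and the epithelial keratin KRT18 at 62.3 and 50.05 FPKM, against 31.3 and 30.7 FPKM. These markers were named after their values were seen, and the part of their differences in the members' differences was not tested. CA9, a usual marker of clear cell carcinoma, was at or near 0, with at most 1 read per library. Summed FPKM was at most 0.0678 over 5 leukocyte markers and at most 0.00512 over 4 endothelial markers, and over 5 fibroblast markers it was 0.712 and 0.811 in the controls and 0.194 and 0.225 with doxycycline.

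Most kinetochore and centromere transcripts were lower in both doxycycline libraries. The summed level of the 40 genes was 616 and 522 FPKM (fragments scaled for exon length and library size) in the 2 untreated libraries, against 283 and 265 FPKM after doxycycline. The test took genes whose 4 libraries averaged 1 FPKM or more, which kept 39 members and 12029 genes in all. CENPP, the remaining member, was below this level. Both doxycycline libraries lay below both controls for 34 of the 39, against 28.9% of all genes kept, and above both controls for 0 of the 39, against 24.3%. The ratio of group means was 0.5 or less for 23 of the 39, against 6.07% of genes kept. The members were chosen with earlier results of these data known, so these comparisons with all genes are not independent of that choice. The members' median log2 difference (doxycycline minus control, computed on log2(FPKM + 1), here and below) was -0.97, beside -0.03 for all genes kept, and it was -0.91 in doxycycline replicate 1 and -0.93 in replicate 2 against the control mean. In bulk RNA, fewer dividing cells and less RNA per dividing cell cannot be told apart.

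No single member passed the test. In limma's trend fit with Benjamini-Hochberg adjustment over the 12029 genes, 0 of 39 members and 0 genes in all (0%) had an adjusted p under 0.05. At an unadjusted p under 0.05, 32 members were lower and 0 higher, against 11.9% and 6.47% of genes kept. The lowest adjusted p over all genes was 0.0573, shared by 106 genes, of which 5 were members: CENPA, CENPW, HJURP, SPC25 and SPDL1. With limma-voom on recovered reads the count of members called was 0 when libraries were scaled by their totals, 9 when scaled by median-of-ratios factors and 7 when weighted by library quality, all of them lower. The share of all genes called was 0%, 1.65% and 1.95% in these fits. Lower and higher are used below of levels, not of genes that passed a test. An exact permutation test of 1 value over 2 against 2 libraries cannot go below 0.33.

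**Figure D1:**
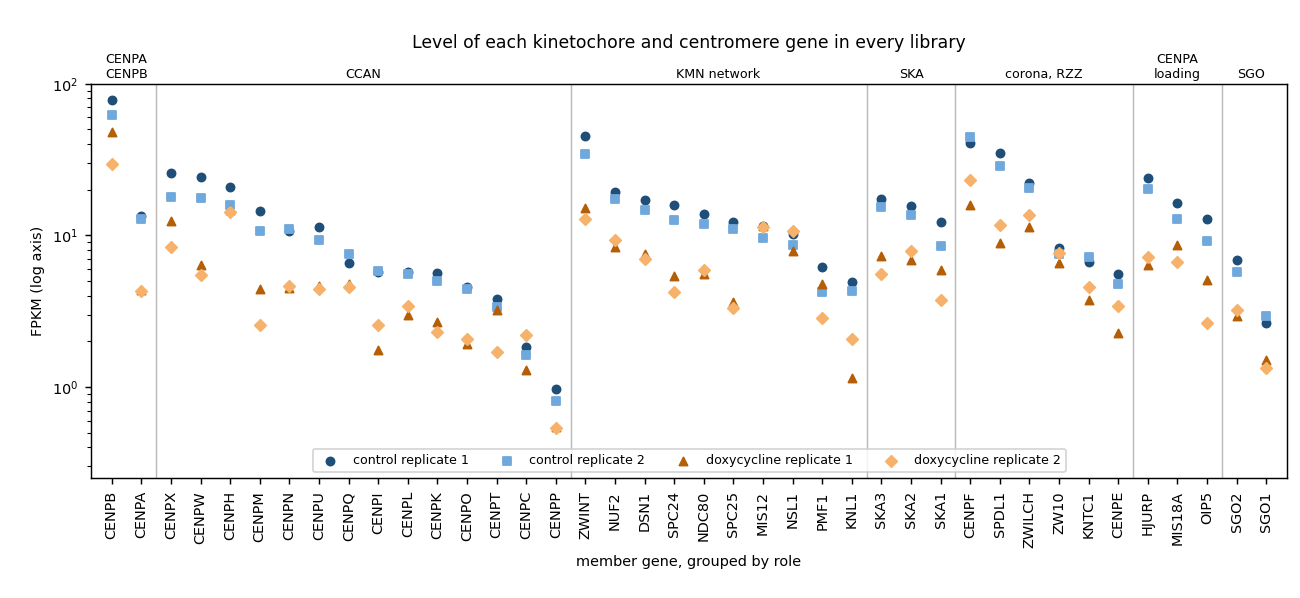
FPKM on a log axis (y) of each of the 40 members (x), grouped by role and ordered by control mean within a role; 1 point per library, circles and squares for controls, triangles and diamonds for doxycycline. Both doxycycline points lie under both control points for most genes, while they mix with the controls for CENPC, MIS12, NSL1, PMF1 and ZW10.

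CENPA itself was 3.03-fold lower with doxycycline. CENPA (ENSG00000115163, GRCh38 chromosome 2, 26764289 to 26801067, plus strand) stood at 13.5 and 12.8 FPKM untreated, against 4.37 and 4.32 FPKM after doxycycline, resting on 425, 442, 163 and 157 reads. Replicates of each group were close together and far from those of the other group, with means of 13.2 ± 0.503 and 4.35 ± 0.0350 FPKM (SD, n = 2 each) and a log2 difference of -1.40 with a standard error of 0.17 (limma adjusted p = 0.0573). CENPB, which binds a sequence box in alpha-satellite repeats, was the most abundant member, at 77.6 and 62.3 FPKM untreated, against 47.9 and 29.5 FPKM after doxycycline. For CENPB the gap between the doxycycline replicates exceeded the gap between the nearest libraries of the groups, and its log2 difference of -0.87 (standard error 0.30, limma adjusted p = 0.215) was made up of -0.53 in replicate 1 and -1.21 in replicate 2. After adjustment for gene length and GC content the value for CENPB was -0.47.

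Genes that load CENPA were lower too, by unequal amounts. HJURP, its dedicated chaperone (ENSG00000123485, chromosome 2, 233833416 to 233854566, minus strand), stood at 24.02 and 20.1 FPKM untreated, against 6.39 and 7.20 FPKM after doxycycline. The doxycycline mean was 0.308 of the control mean, with a log2 difference of -1.56 and a standard error of 0.20 (limma adjusted p = 0.0573). OIP5, the MIS18-beta subunit, stood at 12.8 and 9.15 FPKM and then 5.08 and 2.65 FPKM, the last on only 60 reads, the fewest of any member in any library. MIS18A, its partner, stood at 16.4 and 12.8 FPKM and then 8.71 and 6.69 FPKM. OIP5 shares 470 of its 1236 exon bases with OIP5-AS1 on the other strand, and the strand setting is not given. All 3 loading genes lay below both controls in both doxycycline libraries, as did 28.9% of all genes kept. Their log2 differences ran from -1.56 to -0.84, beside -1.40 for CENPA. The ratio of HJURP to CENPA within a library was 1.78 and 1.57 in the controls and 1.46 and 1.67 with doxycycline, so the groups overlapped for the pair's ratio.

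The sequence upstream of the start is shown for CENPA, HJURP and SPC25, which were among the members at the lowest adjusted p, and for MIS12 and NSL1, whose groups overlapped, because the motifs in them differ. Each run gives the 250 bases before the RefSeq start and the first 10 transcribed bases, on the gene's own strand, from the RefSeq promoter table on GRCh38.p14. Capitals mark matches on either strand to the cell cycle homology region (CHR, written TTTGAA or TTCGAA), to the CCAAT box (CCAAT) and to an E2F site (TTTGGCGC, TTTCCCGC, TTTGCCGC or TTTCGCGC), and none of these letters overlapped between motifs in the runs shown.
CENPA, chr2:26785806-26786065, plus strand: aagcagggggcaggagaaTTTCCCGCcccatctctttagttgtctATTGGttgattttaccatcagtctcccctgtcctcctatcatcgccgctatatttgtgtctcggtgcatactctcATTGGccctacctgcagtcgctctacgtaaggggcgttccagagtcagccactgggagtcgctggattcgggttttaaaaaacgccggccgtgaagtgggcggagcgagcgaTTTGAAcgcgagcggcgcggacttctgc
HJURP, chr2:233854526-233854785, minus strand: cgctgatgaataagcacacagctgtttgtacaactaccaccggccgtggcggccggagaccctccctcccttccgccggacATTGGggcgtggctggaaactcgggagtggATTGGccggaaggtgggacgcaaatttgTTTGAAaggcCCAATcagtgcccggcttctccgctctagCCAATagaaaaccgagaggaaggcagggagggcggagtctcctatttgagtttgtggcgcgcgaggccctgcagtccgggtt
SPC25, chr2:168890421-168890680, minus strand: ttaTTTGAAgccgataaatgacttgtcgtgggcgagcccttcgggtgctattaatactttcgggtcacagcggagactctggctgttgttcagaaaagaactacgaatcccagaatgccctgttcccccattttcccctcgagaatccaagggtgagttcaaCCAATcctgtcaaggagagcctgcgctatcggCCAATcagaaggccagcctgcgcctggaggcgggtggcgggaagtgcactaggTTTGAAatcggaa
MIS12, chr17:5486124-5486383, plus strand: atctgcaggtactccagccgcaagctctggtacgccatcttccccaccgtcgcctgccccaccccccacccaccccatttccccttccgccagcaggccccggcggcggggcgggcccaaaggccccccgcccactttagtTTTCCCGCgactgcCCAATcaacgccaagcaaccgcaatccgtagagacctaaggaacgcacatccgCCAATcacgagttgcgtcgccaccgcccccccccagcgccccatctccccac
NSL1, chr1:212791768-212792027, minus strand: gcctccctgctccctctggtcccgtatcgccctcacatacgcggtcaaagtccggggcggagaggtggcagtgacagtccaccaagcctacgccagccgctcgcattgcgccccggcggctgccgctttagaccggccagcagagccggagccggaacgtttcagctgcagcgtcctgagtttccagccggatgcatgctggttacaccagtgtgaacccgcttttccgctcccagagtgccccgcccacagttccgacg

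CHR letters were more frequent among the members than in the table as a whole. Counting the first transcribed base as 1 and the base before it as -1, they lie at -18 to -13 in CENPA, at -111 to -106 in HJURP, and at -247 to -242 and -3 to 3 in SPC25. MIS12 has 2 CCAAT boxes and an E2F match in the window shown and no CHR match, and NSL1 has no match to any of the 3 motifs. Over whole windows of 300 bases, 34 members had at least 1 window, and 17 of them (50%) held a CHR match, beside 16.4% of all 35116 windows in the table and 14.9% of 8471 kept genes with a window. CCAAT was held by 23 of 34 members (67.6%), beside 34.6% of windows and 43.8% of kept genes, and an E2F match by 4 of 34 (11.8%), beside 3.31% and 7.12%. The 17 members with CHR letters had a median log2 difference of -1.11 and the 16 fitted members without them -0.85, and over all kept genes with a window the medians were -0.02 in both classes. The same medians with and without the letters were -1.01 and -0.97 for CCAAT and -1.18 and -0.97 for E2F, which 4 members hold. CENPC and ZW10, whose groups overlapped, also hold CHR letters, while PMF1 holds none. These are matches of letters in 1 window per start, not binding sites.

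Within the CCAN, 12 of 13 genes kept lay below both controls, beside 28.9% of all genes kept. The sizes of the differences varied within each subcomplex of the CCAN. CENPW, a histone-fold protein that pairs with CENPT, stood at 24.3 and 17.7 FPKM untreated, against 6.42 and 5.49 FPKM after doxycycline, the lowest log2 difference of all members at -1.65 (standard error 0.22, limma adjusted p = 0.0573). Its partner CENPT, which recruits the NDC80 complex, stood at 3.82 and 3.37 FPKM and then 3.21 and 1.70 FPKM, so doxycycline replicate 1 was close to control replicate 2. The interval of its log2 difference, -1.08 to 0.18 at 95%, included 0. CENPX, which with CENPS completes this histone-fold complex and also acts in DNA crosslink repair, stood at 25.8 and 18.0 FPKM and then 12.5 and 8.38 FPKM.

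The CENPH-CENPI-CENPK-CENPM subcomplex was uneven in the same way. CENPM stood at 14.5 and 10.7 FPKM untreated, against 4.46 and 2.58 FPKM after doxycycline, a ratio of 0.279, the lowest of the 40 members. CENPI stood at 5.76 and 5.79 FPKM and then 1.76 and 2.55 FPKM, and CENPK at 5.64 and 5.02 FPKM and then 2.70 and 2.29 FPKM. For these genes the 2 doxycycline libraries were well below the controls, with log2 differences of -1.61, -1.11 and -0.86. CENPH, in contrast, stood at 20.9 and 15.9 FPKM and then 14.7 and 14.2 FPKM, where the gap between the controls was wider than that between the nearest libraries of the 2 groups. Its log2 difference was -0.31 with an interval of -0.83 to 0.21 (limma adjusted p = 0.463).

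CENPN and CENPL, which form a pair that reads the CENPA nucleosome, stood apart from the controls with little spread. CENPN was at 10.7 and 10.9 FPKM untreated, against 4.53 and 4.65 FPKM after doxycycline (log2 difference -1.08, limma adjusted p = 0.0617). CENPL was at 5.71 and 5.55 FPKM and then 3.01 and 3.40 FPKM. Of the CENPO-CENPP-CENPQ-CENPU subcomplex, CENPU, which docks the kinase PLK1, was at 11.3 and 9.37 FPKM and then 4.67 and 4.44 FPKM, and CENPO at 4.54 and 4.45 FPKM and then 1.92 and 2.07 FPKM. CENPQ was closer to the controls, at 6.62 and 7.52 FPKM and then 4.79 and 4.57 FPKM (log2 difference -0.51, interval -0.93 to -0.08). CENPP, the member under the filter, was at 0.965 and 0.809 FPKM and then 0.543 and 0.541 FPKM. Of the 40 members, 17 share exon bases with another gene. CENPP shares 3719 exon bases with IPPK and CENPO 1488 with ADCY3 on the other strand, and without a stated strand setting reads of such pairs cannot be told apart.

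CENPC, the scaffold that links CENPA nucleosomes to the MIS12 complex, was the only one of the 14 CCAN members whose groups overlapped. It stood at 1.84 and 1.63 FPKM untreated, against 1.30 and 2.21 FPKM after doxycycline, with 1 doxycycline library below and 1 above both controls. The log2 difference was -0.01 with a 95% interval of -0.59 to 0.58, so smaller changes in either direction were not detectable here. The ratio of CENPC to CENPA within a library was 0.136 and 0.127 in the controls and 0.298 and 0.510 with doxycycline.

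**Figure D2:**
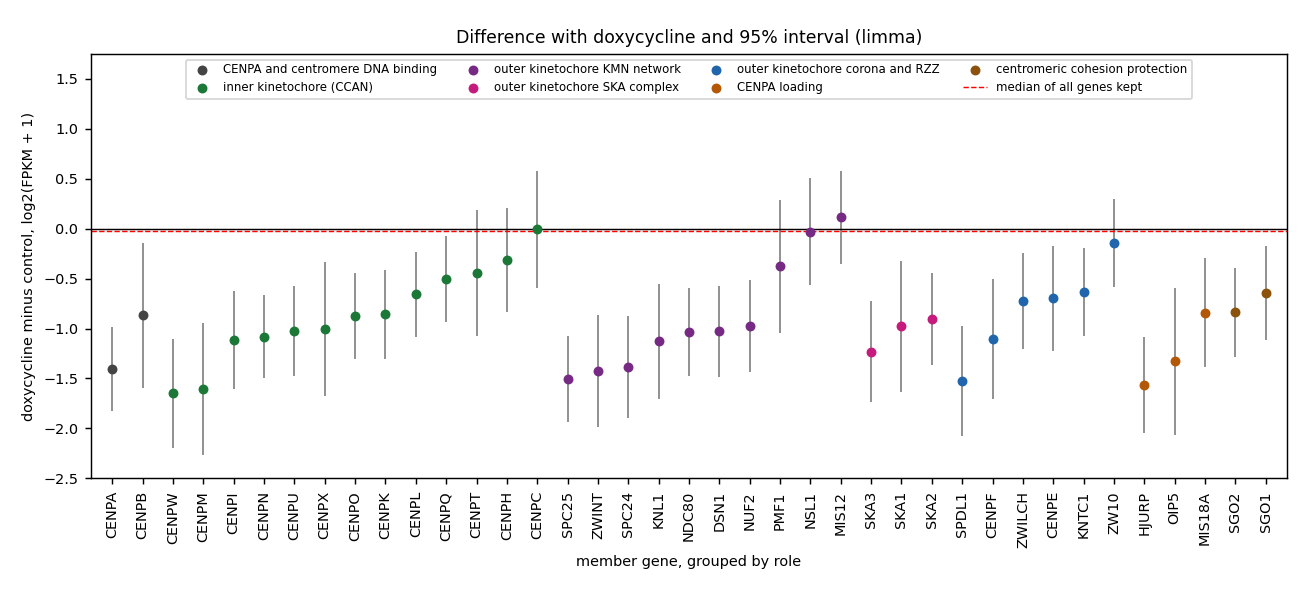
Doxycycline minus control in log2(FPKM + 1) (y) for the 39 members kept (x), coloured by role, with 95% intervals from limma; the dashed line is the median of all genes kept, -0.03. Intervals include 0 for CENPT, CENPH, CENPC, PMF1, NSL1, MIS12 and ZW10 and lie below 0 for the other 32 members.

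In the KMN network, the NDC80 complex was lower as a whole and the MIS12 complex was not. All 4 NDC80 complex genes lay below both controls, beside 28.9% of all genes kept. NDC80, the microtubule-binding subunit (ENSG00000080986, chromosome 18, 2571511 to 2616635, plus strand), stood at 13.8 and 11.9 FPKM untreated, against 5.60 and 5.92 FPKM after doxycycline. NUF2, its coiled-coil partner, stood at 19.5 and 17.4 FPKM and then 8.42 and 9.39 FPKM. The spread within each group was small beside the gap between groups for both genes, with log2 differences of -1.04 and -0.97 (limma adjusted p = 0.0715 and 0.0815). SPC25, which with SPC24 anchors the complex to the inner kinetochore, stood at 12.3 and 11.0 FPKM and then 3.61 and 3.32 FPKM, with a log2 difference of -1.50 and a standard error of 0.18 (limma adjusted p = 0.0573). SPC24 stood at 15.8 and 12.7 FPKM and then 5.42 and 4.23 FPKM. The ratios of group means were 0.339 for SPC24 and 0.298 for SPC25, against 0.447 and 0.483 for NDC80 and NUF2.

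Of the MIS12 complex, DSN1 alone lay below both controls. DSN1, the subunit through which Aurora B tunes binding to CENPC, stood at 17.1 and 14.7 FPKM untreated, against 7.52 and 7.02 FPKM after doxycycline (log2 difference -1.03, standard error 0.19, limma adjusted p = 0.0737). MIS12 stood at 11.5 and 9.55 FPKM and then 11.5 and 11.4 FPKM, so both doxycycline libraries were close to control replicate 1. NSL1 stood at 10.2 and 8.59 FPKM and then 7.85 and 10.7 FPKM, with 1 doxycycline library on either side of the controls. The 95% intervals of the log2 difference were -0.35 to 0.57 for MIS12 and -0.56 to 0.50 for NSL1, so smaller changes in either direction were not detectable here. PMF1 stood at 6.20 and 4.22 FPKM and then 4.77 and 2.86 FPKM, and its replicates differed within both groups. PMF1 shares 587 exon bases with the readthrough gene PMF1-BGLAP on the same strand, so its level is uncertain.

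KNL1 and ZWINT, the third arm of the network, were both lower. KNL1, the scaffold for the BUB checkpoint proteins, stood at 4.93 and 4.30 FPKM untreated, against 1.15 and 2.06 FPKM after doxycycline. ZWINT, which binds KNL1, was the most abundant outer kinetochore transcript of control replicate 1, at 45.01 and 34.4 FPKM untreated, against 15.3 and 12.9 FPKM after doxycycline. The groups were clearly apart for both genes, with log2 differences of -1.13 and -1.43 (limma adjusted p = 0.0943 and 0.0659). KNL1 was lower in doxycycline replicate 1 and ZWINT in replicate 2.

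SKA complex genes, which stabilise the hold of the NDC80 complex on microtubules, were lower together. SKA3 stood at 17.5 and 15.4 FPKM untreated, against 7.35 and 5.59 FPKM after doxycycline, and SKA2 at 15.6 and 13.7 FPKM and then 6.84 and 7.88 FPKM. SKA1 stood at 12.3 and 8.56 FPKM and then 5.90 and 3.76 FPKM. For SKA1 the replicates within each group also differed, which left a standard error of 0.27 on a log2 difference of -0.98, against 0.21 on -1.23 for SKA3 and 0.19 on -0.90 for SKA2.

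Corona and RZZ genes had log2 differences from -1.53 to -0.14. SPDL1, the Spindly adaptor that carries dynein to kinetochores, stood at 34.8 and 28.5 FPKM untreated, against 8.98 and 11.8 FPKM after doxycycline (log2 difference -1.53, standard error 0.23, limma adjusted p = 0.0573). CENPF, a large farnesylated protein of the corona, stood at 40.5 and 44.3 FPKM and then 15.8 and 23.1 FPKM, on 3480 to 9014 reads, the most of any member. CENPE, a kinesin that moves chromosomes to the spindle equator, stood at 5.54 and 4.80 FPKM and then 2.28 and 3.41 FPKM. In each of these 3 genes doxycycline replicate 1 was the lower of the pair. The RZZ complex of ZW10, ZWILCH and KNTC1 (ROD), which recruits SPDL1 and the checkpoint protein MAD1, was less far from control. ZWILCH stood at 22.1 and 20.5 FPKM and then 11.4 and 13.6 FPKM, and KNTC1 at 6.72 and 7.25 FPKM and then 3.75 and 4.54 FPKM. ZW10, which also acts in membrane traffic outside mitosis, stood at 8.32 and 7.58 FPKM and then 6.60 and 7.65 FPKM, so the groups overlapped (log2 difference -0.14, interval -0.59 to 0.30).

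The shugoshins, which shield centromeric cohesin until anaphase, lay below both controls. SGO1 stood at 2.63 and 2.94 FPKM untreated, against 1.501 and 1.34 FPKM after doxycycline, and SGO2 at 6.90 and 5.77 FPKM and then 2.96 and 3.24 FPKM. The ratios of group means were 0.510 and 0.489. SGO1 shares 679 exon bases with SGO1-AS1 on the other strand.

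Set side by side, the inner, outer and loading genes had ranges that overlapped. The median log2 difference was -0.88 for the 15 inner kinetochore and centromere genes kept, from -1.65 to -0.01, and -0.98 for the 19 outer kinetochore genes, from -1.53 to 0.11. For the 3 loading genes it was -1.33, from -1.56 to -0.84. With voom on library totals the inner, outer and loading medians were -1.05, -1.08 and -1.51. Taken separately, doxycycline replicates 1 and 2 gave -0.77 and -0.94 for the inner genes and -0.99 and -0.87 for the outer genes. For the loading genes they gave -0.96 and -1.49. The order of inner and outer genes thus changed between the replicates, and the loading median was the lowest only in replicate 2. No difference between the 3 classes was tested, since members are not replicates of a condition. Both doxycycline libraries lay below both controls for 14 of 15 inner, 15 of 19 outer and 3 of 3 loading genes, beside the 28.9% of all genes given above.

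Ratios between partner genes within a library do not depend on how library size was set, and show where partners differed unequally. They can still carry the differences between libraries that went with GC content and length, given below. The 21 pairs were chosen by shared complex after the levels had been seen. Which gene of a pair is the denominator was also chosen then, so the direction of a ratio depends on that choice. In the MIS12 complex DSN1 to MIS12 was 1.49 and 1.54 in the controls and 0.656 and 0.618 with doxycycline, so DSN1 went from the more to the less abundant of the pair per length. NSL1 to MIS12 was 0.890 and 0.900 and then 0.685 and 0.940, with overlap. In the NDC80 complex NUF2 to NDC80 was 1.41 and 1.46 untreated and slightly higher, at 1.503 and 1.59, after doxycycline, while SPC25 to NDC80 was 0.891 and 0.920 in the controls and 0.645 and 0.562 with doxycycline. ZWILCH to ZW10 was 2.66 and 2.70 and then 1.73 and 1.78. CENPM to CENPH was 0.694 and 0.675 and then 0.302 and 0.182, and OIP5 to MIS18A was 0.779 and 0.717 and then 0.583 and 0.396.

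**Figure D3:**
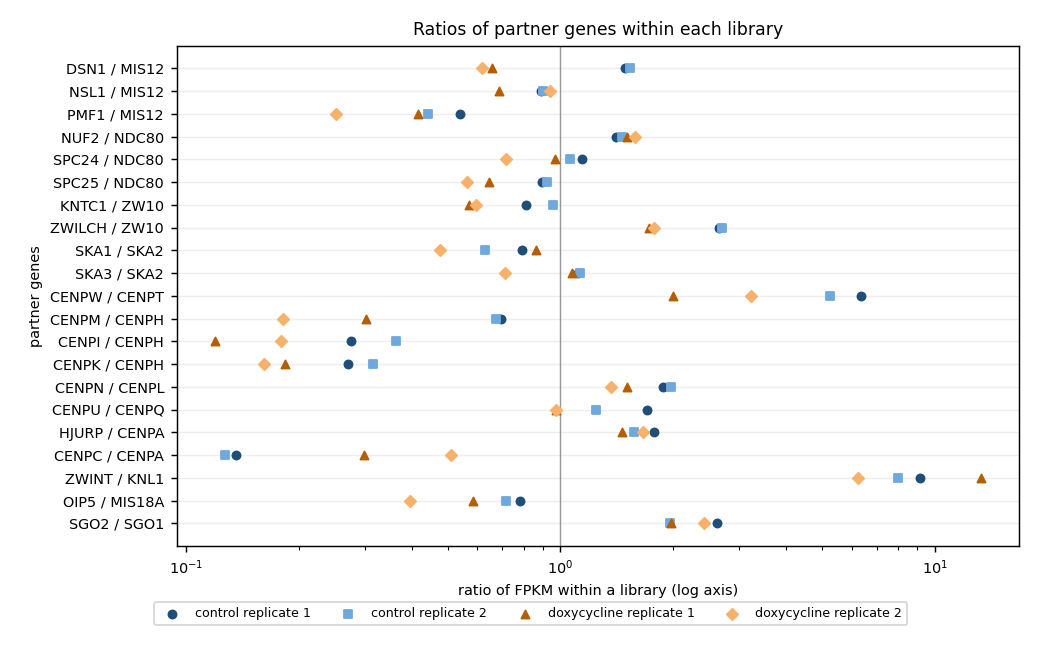
Ratio of FPKM of 2 partner genes within each library (x, log axis) for 21 pairs (y), with 1 point per library and a line at 1. DSN1 to MIS12 moves from 1.49 and 1.54 in the controls to 0.656 and 0.618 with doxycycline, while NUF2 to NDC80 lies between 1.41 and 1.59 in all 4 libraries.

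Other genes of the same complexes and of the kinetochore's regulators were taken from a list of 41 that holds none of the 40 members. ITGB3BP, the CENPR subunit of the CENPO-CENPP-CENPQ-CENPU complex, stood at 6.78 and 5.82 FPKM untreated, against 5.84 and 6.39 FPKM after doxycycline, so the groups overlapped. CENPS, under the filter, stood at 1.05 and 0.759 FPKM and then 0.948 and 0.691 FPKM, on 22 to 31 reads. Of 14 checkpoint proteins and kinases, 13 lay below both controls and 0 above, beside 28.9% and 24.3% of all genes kept. Their median log2 difference was -1.13. PLK1 and BIRC5, the pair of lowest p among the lower genes of the list, stood at 12.5 ± 1.72 and 14.3 ± 1.99 FPKM with doxycycline against 41.8 ± 3.17 and 48.8 ± 7.95 FPKM in the controls (SD, n = 2 each).

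Microtubule and dynein genes and phosphatases and cofactors gave mixed values. Of 11 microtubule and dynein genes, 5 lay below both controls and 4 above, with a median of -0.13, and of 13 phosphatases and cofactors, 3 lay below and 4 above, with a median of -0.06. Over all genes kept the shares were 28.9% below and 24.3% above. KIF2C, a microtubule-depolymerising kinesin, SPAG5, KIF18A, NDE1 and KNSTRN were the 5 microtubule and dynein genes below both controls, with log2 differences from -1.13 to -0.66. ERCC6L, CENPV and PPP1CC were the 3 phosphatases and cofactors below both, at -1.12, -0.70 and -0.30. These 8 genes were named after their values were seen. CLASP1, a microtubule plus-end protein, stood at 9.08 and 11.8 FPKM untreated, against 15.9 and 18.1 FPKM after doxycycline, and PPP2R5B, a regulatory subunit of protein phosphatase PP2A, at 1.81 and 1.31 FPKM and then 4.71 and 3.32 FPKM. These were the pair of lowest p among the higher genes, and neither passed (limma adjusted p = 0.196 and 0.123). In all, 0 of the 40 list genes kept passed the test, while 18 were lower and 2 higher at an unadjusted p under 0.05, beside 11.9% and 6.47% of all genes kept. Beside these stand 19 G2/M genes outside the kinetochore, 19 of which lay below both controls with a median of -1.16, and 20 DNA replication genes, 20 of which lay below with a median of -1.27. AURKA and MCM5, of lowest p in those lists, had ratios of 0.245 and 0.244. Both lists were also chosen with earlier results of these data known. The part of a lower share of dividing cells in the members' differences was not tested.

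Members also differed between replicates of a group. Of the 40 members, 34 were higher in control replicate 1 than in control replicate 2, against 58.5% of genes kept, with a median log2 gap of 0.18 over the 39 kept. Between the doxycycline libraries 22 members were higher in replicate 1, against 50.3% of genes kept, and the direction went with GC content and length. The GC content of the longest transcript ran from 32.9% in CENPK to 66.2% in CENPB, with a median of 41.6% beside 47.7% for all genes kept. Doxycycline replicate 1 was the higher for 7 of the 8 members above 50% GC, while replicate 2 was the higher for 8 of the 12 members below 40%. Across the 39 members, doxycycline replicate 2 minus replicate 1 in log2(FPKM + 1) had Pearson's r = -0.64 and Spearman's rho = -0.55 with GC content, and r = 0.65 and rho = 0.70 with log2 exon length. Over all genes kept, r was -0.48 and rho -0.56 with GC content (12024 genes) and r was 0.13 and rho 0.21 with log2 exon length. Control replicate 2 minus replicate 1 had r = -0.37 and rho = -0.30 with GC content and r = 0.55 and rho = 0.58 with log2 exon length across the members. For this control pair, all genes kept had r = 0.01 and rho = 0.01 with GC content. With log2 exon length they had r = 0.11 and rho = 0.32. Genes of a library share its preparation and depth, so these describe the libraries and carry no test.

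CENPB, CENPM, CENPT, CENPX and PMF1, all above 50% GC, and OIP5 and SKA1 were lower in doxycycline replicate 2 than in replicate 1 by 0.52 or more in log2(FPKM + 1). CENPF, the longest member at 11690 exon bases, KNL1 and CENPC were higher in replicate 2, by 0.52, 0.51 and 0.48. The adjustment for length and GC content moved the log2 differences of CENPB, CENPT and CENPX, from -0.87, -0.45 and -1.01 to -0.47, -0.22 and -0.66, by over 1.5 times. Under it 20 members passed, all lower, with 2.81% of all genes called. The members' median was -1.07 under it.

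**Figure D4:**
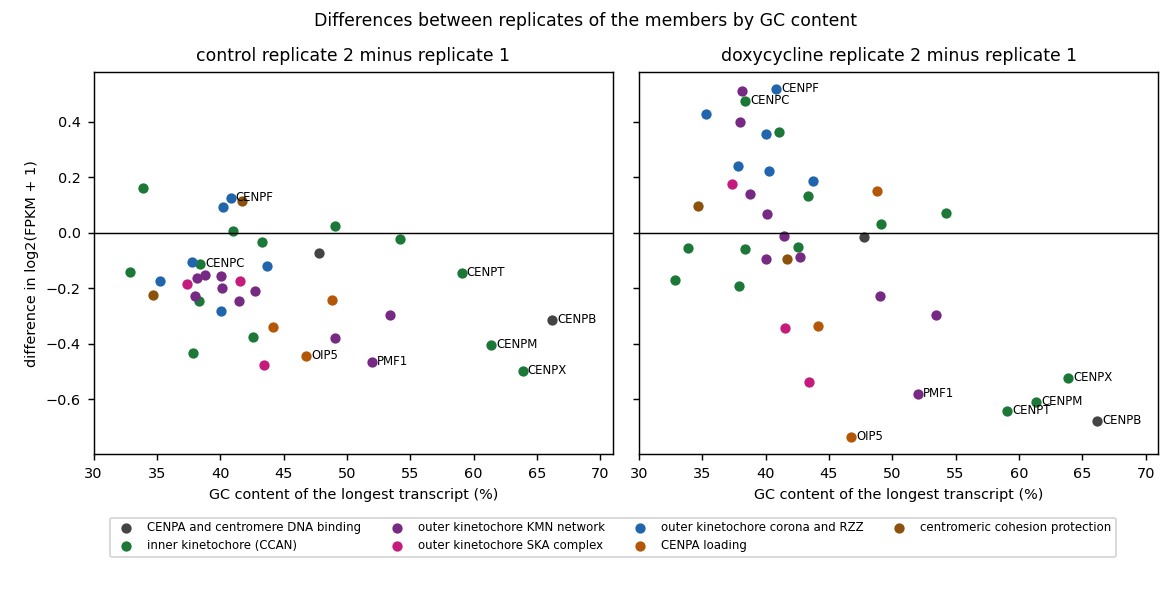
Replicate 2 minus replicate 1 in log2(FPKM + 1) (y) against GC content of the longest transcript in percent (x) for the 39 members kept, controls on the left and doxycycline on the right, coloured by role. On the right the GC-rich genes CENPB, CENPM, CENPT, CENPX and PMF1 lie at -0.52 or lower, while CENPF and CENPC lie near 0.5.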

How the data were processed

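RNA was measured in 4 libraries, 2 per group. The deposited tables give FPKM per gene, which the authors computed before deposit; the submitters' processing notes name HISAT2 2.0.5, featureCounts 1.5.0-p3 and limma, with no role or order. The build and the strand setting are not given in the sources used here. For each of the 58735 genes the ID, coordinates and exon length matched GENCODE release 29 exactly (Ensembl 94, GRCh38). Multiplying FPKM by exon length gave whole reads for every value above 0 at a tolerance of 0.02 reads, which gave the depth of each library. These reads served limma-voom as an alternative. The library sizes within the FPKM were 97.2% and 101% of the recovered reads in control replicates 1 and 2. For doxycycline replicates 1 and 2 they were 107.5% and 97.6%. Median-of-ratios sizes were 96.9%, 100.4%, 106.7% and 96.3% of the recovered reads in the same order. The deposited FPKM was thus not scaled by read totals alone.

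Values were taken to log2(FPKM + 1) from the deposited FPKM. Genes with an average of 1 FPKM or more were fitted with limma 3.58.1 (R 4.3.3), with a trend, as doxycycline against control with no other term, at a Benjamini-Hochberg adjusted p threshold of 0.05. A log2 difference understates the change of low genes. Members rested on 60 to 9014 reads per library, with a median of 407. The fit was tested on simulated data. Tables and plots used Python 3.11.15, pandas 2.3.3 and matplotlib 3.10.9.

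All 40 members were named, with USP35, CENPS, ITGB3BP and, from the other kinetochore, G2/M and replication lists, the genes of lowest p per direction. 1 further gene of the rule is not reported here. Members and lists were chosen with earlier results of these data known. Promoters came from the RefSeq table on GRCh38.p14, which matched 34 members. CENPH, CENPL, CENPM, KNL1, KNTC1 and MIS18A had no entry. Alternatives covered the pseudocount, filter, scaling, test, GC content and length, a replicate block and leaving out each library.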

Additional observations from a re-analysis of the deposited data

How the results depend on the processing

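With 2 libraries a group the count of calls depended on the fit. It was 0 genes and 0 members under both other pseudocounts, no filter, quantile, mitochondria-free and median-of-ratios scaling of FPKM, no trend, robust fitting and voom with library totals. Genes and members called were 261 and 14 of 28 fitted at a mean of at least 5 FPKM, 242 and 13 with protein-coding genes only, 198 and 9 with voom after median-of-ratios scaling, 234 and 7 with voom quality weights, and 338 and 20 after adjustment for length and GC content. Every member called in these fits was lower. In fits on all 4 libraries that kept the 39 members, both doxycycline libraries lay below both controls for 33 to 35 of them. The share over all genes kept was 28.9% in the main fit. Under quantile and mitochondria-free scaling 1 member lay above both. When 1 library was left out, 34 to 37 members lay below the controls and 0 to 2 above. Separation is easier to meet with fewer libraries, and its share over all genes is not given for those fits.

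With the replicate block, 784 genes and 25 members passed. The labels do not say that a shared number marks a shared culture or day, the deviations of same-numbered libraries correlated at 0.207 across genes, and on simulated data this fit made more false calls than its threshold allows. Leaving out 1 library gave 0 to 3942 genes and 0 to 33 members called. Both control removals gave 0, without doxycycline replicate 1 there were 3942 and 33, and without doxycycline replicate 2 there were 1605 and 28. In these fits the lone library is assumed to vary like the other group.

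The members' median log2 difference ran from -1.04 to -0.813 without 1 library. For the loading genes it was -1.53 with a pseudocount of 0.1, and -1.51, -1.54 and -1.52 with voom (totals, median-of-ratios, weights), and -1.55 to -0.961 without 1 library. For the inner genes it was -1.07 and -1.0 with pseudocounts of 0.1 and 0.5, -1.02 at a mean of 5 FPKM, -1.05, -1.09 and -1.05 with voom, -0.771 after the GC and length adjustment, and -1.02 to -0.773 without 1 library. For the outer genes it was -1.11 with a pseudocount of 0.1, -1.08, -1.11 and -1.08 with voom, -1.12 after the GC and length adjustment, and -1.05 to -0.872 without 1 library.

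Of 898 values of named genes under 19 alternatives, 19 changed sign, in 4 genes whose groups overlapped. CENPC became 0.0525 with mitochondria-free scaling, 0.0255 and 0.0267 with voom on totals and with weights, 0.049 without control replicate 1 and 0.232 without doxycycline replicate 1. ITGB3BP became 0.0197 with quantile scaling, 0.0456 mitochondria-free, 0.00867 and 0.00868 with the same voom fits, 0.0606 without control replicate 1 and 0.0217 without doxycycline replicate 1. NSL1 became 0.0432, 0.0542, 0.0159, 0.0165, 0.0845 and 0.17 under those settings in the same order. MIS12 became -0.00765 after the GC and length adjustment and -0.0104 without control replicate 2. Without 1 library, the values ran from -0.245 to 0.232 for CENPC, from -0.13 to 0.0606 for ITGB3BP, from -0.229 to 0.17 for NSL1 and from -0.0104 to 0.235 for MIS12. The cause was not tested.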
